A study of Homo sapiens with 8 samples.

Results

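The genes described here encode complement proteins, a ficolin and receptors for complement and bacterial peptides. They are the 10 rows C1QA, C1QB, C1QC, C3, CFD, CFP, C3AR1, C5AR1, FCN1 and FPR1 of a table of 26364 gene symbols, chosen by name and followed in all 8 RNA-seq libraries. MV4-11 is a human acute myeloid leukemia (AML) cell line with the genotype FLT3-ITD and MLL-AF4, which every group shares. The cells received DMSO (control), the LSD1 inhibitor TCP (tranylcypromine) at 5 µM, the CDK4/6 inhibitor palbociclib at 0.5 µM, or both, with 2 libraries per group and a treatment of 4 days by the labels. The methods of the study give, for in vitro treatments in general, palbociclib alone for 1 day and both molecules for the following 3 days. All 8 libraries come from 1 cell line, and the labels do not say that the replicates were separate cultures, so the p-values measure the spread between these libraries, which may be technical.

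Complement is a cascade of plasma proteins that marks and attacks targets. C1q and the ficolins recognise targets in the classical and lectin pathways, while factor D and properdin drive the alternative pathway, and all routes converge on cleavage of C3. The small fragments C3a and C5a act on G protein-coupled receptors of myeloid cells, as formylated bacterial peptides do on FPR1. The liver makes most plasma complement, but monocytes, macrophages and neutrophils make C1q, C3, factor D, properdin and the ficolin of FCN1 themselves.

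Values are in TPM, a unit of transcript level scaled for gene length and to the same sum in each library. Differences were tested with limma on log2(TPM + 1) across all genes, and a gene was called when its Benjamini-Hochberg adjusted p was below 0.01 and its absolute log2 fold change was at least 1. On this scale the change of a gene below 1 TPM is understated, and the smallest p that an exact permutation of 2 against 2 libraries allows is 0.333. The median log2 fold change of the 14151 genes tested was -0.04 with TCP, -0.16 with palbociclib and -0.22 when both were given. Of the 10 genes, 8 passed the low-value filter of 1 TPM in at least 2 libraries. C1QB and C1QC did not. C5AR1 passed only through the 2 combination libraries, and C1QA only through the palbociclib and combination libraries.

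The labelled cell type was checked first, with a list of 8 genes. CD33, a myeloid surface protein, lay between 103 and 141 TPM in the 8 libraries. FLT3, the receptor mutated in these cells, was between 182 and 263 TPM in the control and TCP libraries and between 62.6 and 94.8 TPM in the palbociclib and combination libraries. It was called lower under palbociclib (log2 fold change -1.52) and the combination (-1.71). SPI1, the gene of the myeloid transcription factor PU.1, was called higher under the combination (1.01), and CSF1R, the receptor of a macrophage growth factor, under palbociclib (1.29) and the combination (2.52). KIT, HOXA9, MEIS1 and PTPRC make up the rest of the list, and none was called. KIT lay between 0.528 and 1.48 TPM in the 8 libraries. Under palbociclib the log2 fold change was -0.56 for HOXA9, -0.53 for MEIS1 and 0.76 for PTPRC.

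Palbociclib replicate 2 stood apart in stromal transcripts. The study cultured its cell lines on HS-5 stromal cells, although the labels of these libraries do not mention them. Over a list of 15 stromal genes the summed level was 181 TPM in this library, against 36.2 TPM in palbociclib replicate 1 and 25.3 to 69.0 TPM in the 6 libraries of the other groups. COL1A1, a collagen gene, was at 22.2 TPM in it and at 1.32 TPM in palbociclib replicate 1, and POSTN was listed at 0 in every library. None of the 9 stromal genes tested was called in any of the 6 comparisons by limma, and at most 2 of them had an unadjusted p below 0.05 in a comparison. Log2 differences from palbociclib without this library are given below for the 10 genes and for the list genes called under palbociclib, and the part of stromal RNA in them was not tested.

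The 3 chains of C1q are encoded side by side, and only 1 of the genes was expressed above 1 TPM. C1QA lies on chromosome 1 at chr1:22961570-22966171 (GRCh37, plus strand), followed by C1QC at chr1:22969507-22974603 and C1QB at chr1:22979255-22988130, with 3335 bp and 4651 bp between them. C1QA was at 0.221 and 0.0872 TPM in control, 0.233 and 0.213 TPM with TCP, 10.8 and 11.5 TPM with palbociclib and 28.8 and 23.7 TPM with the combination. The palbociclib libraries were above all control and TCP libraries, and the combination libraries were above those. The log2 fold change against control was 3.40 under palbociclib (SE 0.15, limma adjusted p = 3.67e-05) and 4.56 under the combination (SE 0.15, adjusted p = 8.46e-06). C1QA met the filter through the palbociclib and combination libraries alone, so these calls are not independent of it.

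C1QC was listed at 0 in 5 of the 8 libraries and reached 0.171 TPM in palbociclib replicate 2 and 0.0913 and 0.805 TPM in the combination libraries. C1QB was listed at 0 in 7 libraries and at 0.0748 TPM in TCP replicate 2. In combination replicate 2, C1QA was therefore at 23.7 TPM beside 0.805 TPM of C1QC and none of C1QB, although the mature protein needs all 3 chains. TPM compare these genes per length, but the gene lengths used in the counting are not given in the sources used here.

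**Figure D1:**
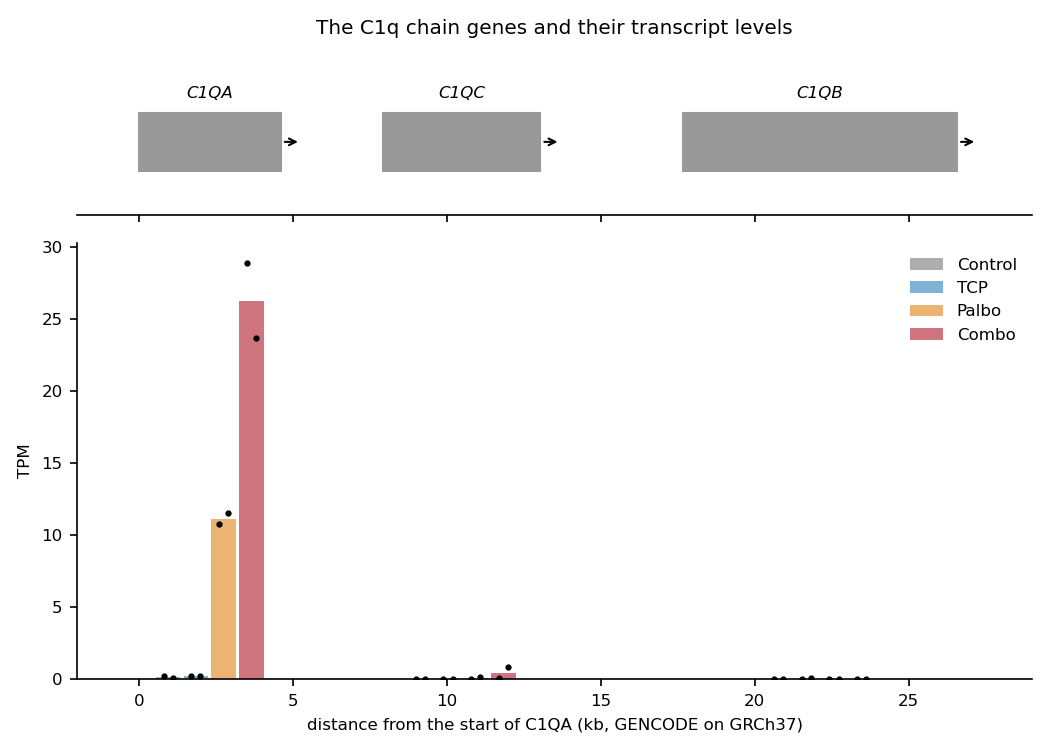
Upper track, the 3 C1q chain genes drawn to scale by their distance in kb from the start of C1QA, with arrows for the direction of transcription. Lower track, TPM in each group placed under its gene (bars, mean of 2 libraries; points, libraries), where C1QA reaches 28.8 TPM and C1QC and C1QB stay below 1 TPM in every library.

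The start regions of C1QA and C1QB are shown because these neighbours differed in level, and those of FCN1 and C5AR1 because these genes had the largest log2 differences between the combination and palbociclib among the 8 genes tested. They are RefSeq promoter windows of 250 bases before to 50 after a transcription start on GRCh38.p14, and windows were found for 8 of the 10 genes. They were searched on both strands for GAGGAA (a core of PU.1 sites), TTGCNNAA (a C/EBP site) and AAATCAC (a core of GFI1 sites, a repressor that works with LSD1), none of which overlapped another in these windows. Capitals mark the matches, where TTCCTC is GAGGAA read on the other strand.
C1QA (chr1:22636378-22636677, plus strand): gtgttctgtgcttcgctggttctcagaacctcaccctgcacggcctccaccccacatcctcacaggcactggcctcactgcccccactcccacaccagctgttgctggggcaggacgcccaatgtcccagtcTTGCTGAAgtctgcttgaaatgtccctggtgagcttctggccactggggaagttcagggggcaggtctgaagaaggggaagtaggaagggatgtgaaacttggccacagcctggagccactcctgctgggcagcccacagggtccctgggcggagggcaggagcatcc
C1QB (chr1:22652986-22653285, plus strand): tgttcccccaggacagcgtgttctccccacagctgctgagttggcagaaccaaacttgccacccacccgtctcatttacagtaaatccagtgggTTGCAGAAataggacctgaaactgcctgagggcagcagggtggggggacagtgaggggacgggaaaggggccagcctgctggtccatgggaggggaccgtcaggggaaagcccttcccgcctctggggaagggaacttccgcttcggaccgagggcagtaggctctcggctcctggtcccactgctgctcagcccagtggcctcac
FCN1 (chr9:134917863-134918162, minus strand): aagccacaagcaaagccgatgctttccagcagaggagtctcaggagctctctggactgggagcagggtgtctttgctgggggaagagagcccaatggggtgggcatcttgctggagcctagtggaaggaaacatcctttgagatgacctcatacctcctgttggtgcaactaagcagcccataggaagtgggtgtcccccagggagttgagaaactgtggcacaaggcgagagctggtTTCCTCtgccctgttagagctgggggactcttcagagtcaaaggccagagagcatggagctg
C5AR1 (chr19:47309611-47309910, plus strand): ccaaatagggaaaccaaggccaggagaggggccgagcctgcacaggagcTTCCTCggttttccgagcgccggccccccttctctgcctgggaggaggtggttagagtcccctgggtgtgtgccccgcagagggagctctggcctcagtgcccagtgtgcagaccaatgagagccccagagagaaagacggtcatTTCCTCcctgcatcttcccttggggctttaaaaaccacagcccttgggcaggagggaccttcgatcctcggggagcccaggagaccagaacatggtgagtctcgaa

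The C1QA and C1QB windows each held 1 C/EBP match, which began at positions -118 and -156, counted from the transcription start. A second window of C1QA held another at position -168. Such a match was present in 10.5% of 35116 promoter windows. The PU.1 core occurred once in the FCN1 window, at position -12, and in that of C5AR1 at the 2 positions -201 and -56. One of the windows of CFP held 3 PU.1 cores. This core was present in 27.9% of all windows. The windows of CFD, C3AR1 and FPR1 held none of the motifs, and no window of these genes held the GFI1 core, which was in 3.14% of all windows. These matches describe letters in a window and not bound sites.

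FCN1 had the largest change of the 10 genes. It encodes ficolin-1, a recognition protein of the lectin pathway made by monocytes and granulocytes, on chromosome 9 at chr9:137795078-137809758 (GRCh37, minus strand). FCN1 was at 0 and 0.224 TPM in control, 1.10 and 3.47 TPM with TCP, 11.5 and 14.8 TPM with palbociclib and 306 and 340 TPM with the combination. The 4 groups did not overlap, and the combination libraries stood more than an order of magnitude above every other library. The log2 fold change was 1.47 under TCP (SE 0.33, limma adjusted p = 0.188), 3.67 under palbociclib (adjusted p = 0.000335) and 8.19 under the combination (adjusted p = 1.66e-05).

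Among the 14151 genes tested, FCN1 ranked 4 in log2 fold change of the combination against control and 2 against palbociclib. Its log2 difference between the combination and palbociclib was 4.52 (SE 0.33, 95% interval 3.74 to 5.30, limma adjusted p = 0.00236). FCN2, a paralog 15708 bp away, was at 0.926 and 1.01 TPM in the combination libraries and at or below 0.363 TPM in the others, and it did not pass the filter. Reads shared between the paralogs could have been split in the counting.

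The alternative pathway genes were the most abundant of the set. CFD encodes factor D, the protease that cleaves factor B, on chromosome 19 at chr19:859453-867884 (GRCh37, plus strand). CFD was at 394 and 352 TPM in control, 248 and 222 TPM with TCP, 1098 and 1133 TPM with palbociclib and 883 and 876 TPM with the combination. It was the only one of the 10 genes that was lower in both TCP libraries than in both control libraries and also lower in both combination libraries than in both palbociclib libraries. Mean TPM was 2.99-fold the control under palbociclib and 2.36-fold under the combination, with log2 fold changes of 1.58 (SE 0.08, limma adjusted p = 6.98e-05) and 1.24 (adjusted p = 7.10e-05).

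The log2 fold change of CFD under TCP was -0.66 (SE 0.08, limma adjusted p = 0.0353), short of both thresholds, and the combination differed from palbociclib by -0.34 (95% interval -0.54 to -0.14, adjusted p = 0.0848). CFD made up 93.0% and 91.1% of the summed TPM of the 10 genes in the control libraries and 50.7% and 48.4% in the combination libraries.

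CFD follows a cluster of neutrophil granule genes, with ELANE 3205 bp away, and these were looked at after the values of CFD were seen. AZU1, the gene of azurocidin, was at 768 and 674 TPM in control, 585 and 572 TPM with TCP, 3394 and 3535 TPM with palbociclib and 2308 and 2478 TPM with the combination. ELANE, the gene of neutrophil elastase, was at 798 and 709, 425 and 401, 1802 and 1907, and 1115 and 1034 TPM in the same order. PRTN3, the gene of proteinase 3, was at 971 and 831, 419 and 417, 4401 and 3798, and 2534 and 1918 TPM, and its log2 fold change of -1.10 under TCP was called with the replicate block alone (limma adjusted p = 0.00686, and 0.0400 without). Each of these genes, like CFD, was highest with palbociclib alone, lower with the combination and lowest with TCP alone. MED16, which overlaps the end of CFD, was between 25.4 and 33.2 TPM in the 8 libraries.

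C3 encodes the central component of complement, on chromosome 19 at chr19:6677715-6730573 (GRCh37, minus strand). C3 was at 2.32 and 3.66 TPM in control, 4.69 and 5.81 TPM with TCP, 33.8 and 47.1 TPM with palbociclib and 75.5 and 81.0 TPM with the combination. The groups did not overlap and rose in that order. Mean TPM was 13.5-fold the control under palbociclib (log2 fold change 3.38, SE 0.21, limma adjusted p = 0.000105) and 26.2-fold under the combination (4.33, adjusted p = 2.76e-05), and the log2 fold change under TCP was 0.66 (adjusted p = 0.384). GPR108, which overlaps C3, was between 62.1 and 69.7 TPM in all libraries.

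CFP encodes properdin, which stabilises the C3 convertase, on chromosome X at chrX:47482571-47489704 (GRCh37, minus strand). CFP was at 22.1 and 25.8 TPM in control, 37.0 and 47.8 TPM with TCP, 279 and 375 TPM with palbociclib and 349 and 410 TPM with the combination. The palbociclib and combination libraries overlapped with each other and lay above the other 4. Log2 fold changes were 3.71 under palbociclib (SE 0.18, limma adjusted p = 4.75e-05) and 3.93 under the combination (adjusted p = 2.30e-05). The combination differed from palbociclib by 0.22 (95% interval -0.21 to 0.65, adjusted p = 0.587). Under TCP the log2 fold change was 0.79 (adjusted p = 0.195).

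The receptors followed different patterns. C3AR1 encodes the C3a receptor, on chromosome 12 at chr12:8209440-8218955 (GRCh37, minus strand). C3AR1 was at 4.04 and 3.77 TPM in control, 3.08 and 2.52 TPM with TCP, 18.6 and 20.0 TPM with palbociclib and 19.6 and 20.7 TPM with the combination. The palbociclib and combination libraries overlapped. Log2 fold changes were 2.05 under palbociclib (SE 0.12, limma adjusted p = 8.33e-05) and 2.11 under the combination (adjusted p = 3.66e-05), and the difference between them was 0.06 (95% interval -0.22 to 0.34, adjusted p = 0.836).

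C5AR1 encodes the C5a receptor, on chromosome 19 at chr19:47793280-47825323 (GRCh37, plus strand). C5AR1 was at 0.623 and 0.286 TPM in control, 0.711 and 0.267 TPM with TCP, 0.571 and 0.392 TPM with palbociclib and 5.39 and 4.60 TPM with the combination. The first 6 libraries overlapped and the 2 combination libraries stood above all of them. The log2 fold change was 0.03 under TCP (SE 0.23, 95% interval -0.51 to 0.56), 0.03 under palbociclib (95% interval -0.50 to 0.57) and 2.05 under the combination (limma adjusted p = 0.000404). Since its filter was met through the combination libraries alone, its call is not independent of that choice. C5AR2, the second C5a receptor, 10108 bp further on, was at 0.846 and 1.05 TPM in control, 2.62 and 3.66 TPM with palbociclib and 4.48 and 3.52 TPM with the combination. Unlike C5AR1 it was called with palbociclib alone (log2 fold change 1.08, limma adjusted p = 0.00703) as well as with the combination (1.35, adjusted p = 0.00206).

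FPR1 encodes the high-affinity formyl peptide receptor of phagocytes, on chromosome 19 at chr19:52248425-52307368 (GRCh37, minus strand). FPR1 was at 0.355 and 0.628 TPM in control, 1.21 and 1.14 TPM with TCP, 21.2 and 18.6 TPM with palbociclib and 74.2 and 54.7 TPM with the combination. The 4 groups did not overlap. Log2 fold changes were 0.55 under TCP (SE 0.18, limma adjusted p = 0.384), 3.81 under palbociclib (adjusted p = 4.42e-05) and 5.44 under the combination (adjusted p = 8.46e-06). FPR2, its paralog on the other strand within the annotated span of FPR1, was at 0.953 and 1.03 TPM in control, 28.1 and 29.6 TPM with palbociclib and 32.5 and 33.2 TPM with the combination. Both FPR2 increases were called (log2 fold changes 3.91 and 4.09). FPR3 stayed at or below 0.259 TPM. Where these genes overlap, reads may have been exchanged, since the strand setting of the counting is not given.

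**Figure D2:**
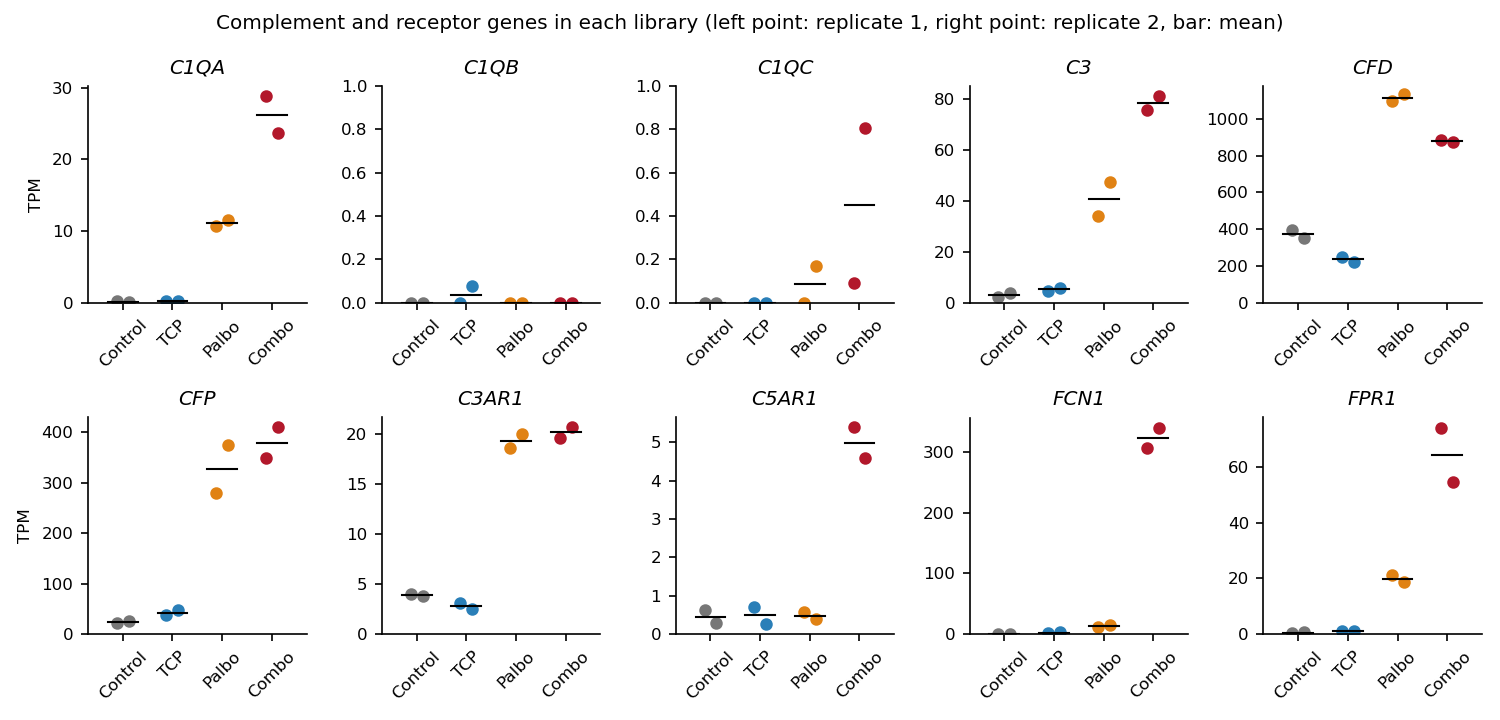
TPM of the 10 genes in each library, with its own linear axis from 0 for each gene (left point, replicate 1; right point, replicate 2; bar, mean). C5AR1 is above 1 TPM only in the combination libraries, FCN1 reaches 306 and 340 TPM there, CFD is highest with palbociclib alone, and C1QB and C1QC stay below 1 TPM.

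Set against each other, the treatments differed in how many of the 10 genes they changed. The 10 genes and the lists below were chosen with earlier results of these data known. Their counts beside the share of all genes are therefore a description and no test. Under TCP none was called by limma, where 0.0565% of the genes tested were, although 6 of the 8 tested had an unadjusted p below 0.05, as did 1241 of the 14151 genes. C3, CFP, FCN1 and FPR1 were higher and CFD and C3AR1 lower in both TCP libraries than in both control libraries, and 34.7% of all genes tested also did not overlap. Under palbociclib 7 of the 10 genes were called, all higher, against 9.10% of the genes tested called in either direction and 4.54% called higher. The same 7 did not overlap with control, against 76.2% of the genes tested. Under the combination 8 of the 10 were called, all higher, against 13.7% called in either direction and 5.87% higher, and 9 did not overlap, against 80.2%. Against TCP the combination had 8 called, all higher, where 12.2% of the genes tested were called and 5.46% called higher, and 9 did not overlap, where 74.8% did not.

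The median log2 fold change of the 8 genes tested was 0.32 with TCP, 3.39 with palbociclib and 4.13 when both were given. Without the low-value filter the medians over all 10 genes were 0.07, 2.71 and 3.02, and 0, 7 and 8 of them were called. In a bulk sample, more cells that express a gene and more of its RNA per cell cannot be told apart. Leaving out palbociclib replicate 2 kept 7 genes called under palbociclib, with log2 fold changes of 3.35 for C1QA, 3.15 for C3, 3.50 for CFP, 3.50 for FCN1, 3.90 for FPR1, 2.00 for C3AR1 and 1.56 for CFD.

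FCN1, FPR1 and C5AR1 were higher with the combination than with palbociclib alone. These 3 of the 10 genes, of which C5AR1 passed the filter through the combination libraries alone, were called by limma between the combination and palbociclib, against 0.502% of the genes tested called in either direction and 0.459% called higher. The log2 difference was 2.02 for C5AR1 (SE 0.23, limma adjusted p = 0.00813) and 1.63 for FPR1 (SE 0.18, adjusted p = 0.00760), beside the 4.52 of FCN1. C1QA differed by 1.16 (SE 0.15, adjusted p = 0.0120) and was called when the replicate number was a block (adjusted p = 0.00873). It was also called with median-ratio scaling (limma adjusted p = 0.00867) and with no trend in the moderation (adjusted p = 0.00854). For C1QA the adjusted p ranged from 0.00854 to 0.122 over 17 alternatives. C3 differed by 0.95 (95% interval 0.45 to 1.45, adjusted p = 0.0638).

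In both combination libraries 5 of the 10 genes were above both palbociclib libraries and CFD was below them, and 53.7% of the genes tested did not overlap. C1QC was not among them. The 3 calls rested on few libraries. Without palbociclib replicate 2 none was called, with log2 differences of 4.69 for FCN1 (adjusted p = 0.0253), 1.93 for C5AR1 (adjusted p = 0.0569) and 1.54 for FPR1 (adjusted p = 0.0560). The other differences were then 1.20 for C1QA, 1.19 for C3, 0.43 for CFP, 0.11 for C3AR1 and -0.32 for CFD. None was called either without palbociclib replicate 1 or without either combination replicate, while FCN1 alone was called when any single control or TCP library was left out.

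On the log2 scale, the change under palbociclib alone amounted to 97.1% of the change under the combination for C3AR1, 94.3% for CFP, 78.0% for C3, 74.5% for C1QA, 70.0% for FPR1, 44.8% for FCN1 and 1.62% for C5AR1. For CFD it was 128%. These shares hold for a pseudocount of 1 and depend on it for C1QA, FPR1, FCN1 and C5AR1, which were below 1 TPM in control. The departure of the combination from the sum of both single log2 changes was 3.05 for FCN1 (SE 0.47, limma adjusted p = 0.210), 1.99 for C5AR1 (SE 0.32, adjusted p = 0.213), 1.08 for C1QA (adjusted p = 0.299) and 1.08 for FPR1 (adjusted p = 0.427). For CFP it was -0.57 (95% interval -1.18 to 0.04). These values depended on the pseudocount. With 0.1 in place of 1 the departure was 1.09 for FCN1, 0.53 for FPR1, 0.83 for C1QA and 3.10 for C5AR1. Without palbociclib replicate 2 it was 3.22 for FCN1, 1.90 for C5AR1, 1.12 for C1QA, 0.99 for FPR1 and -0.36 for CFP. No gene was called in this test by limma, among the 10 or among the 14151. At an unadjusted p below 0.05 it held 6 of the 8 genes tested and 904 of all genes. The log2 comparisons with control share the same 2 control libraries.

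**Figure D3:**
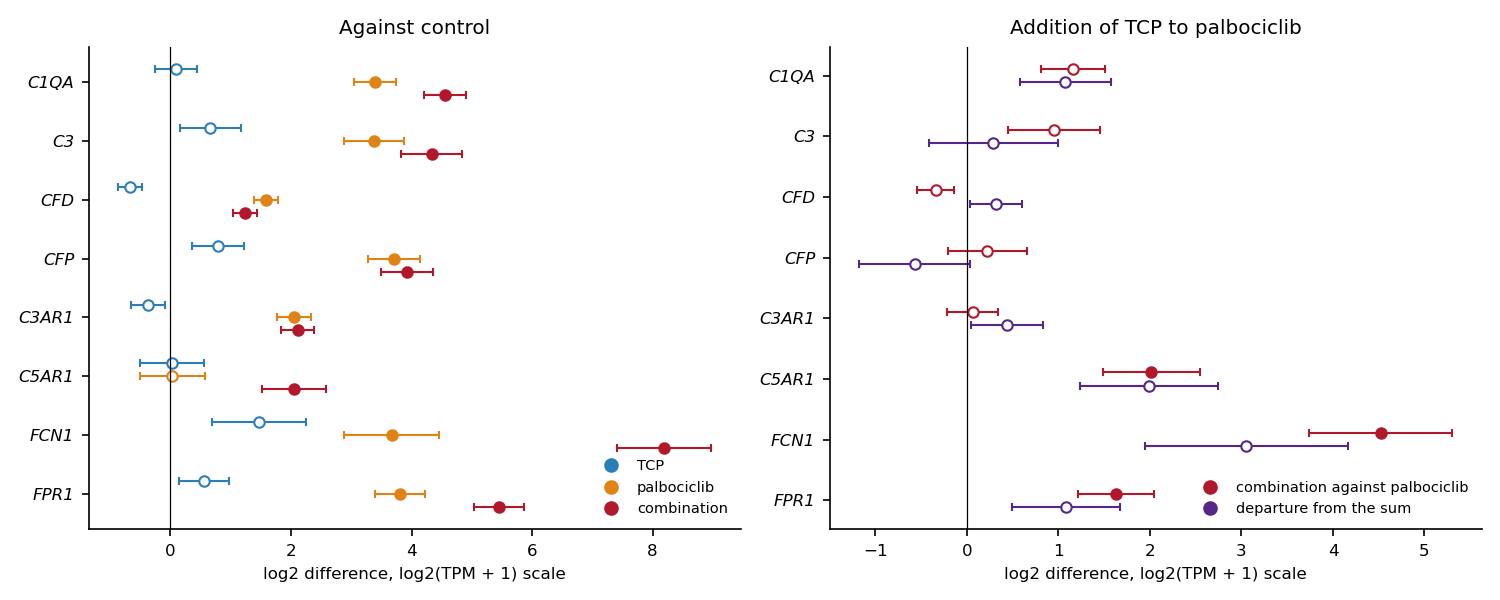
Log2 differences of the 8 genes tested, on the log2(TPM + 1) scale, with 95% intervals from limma. Left, each treatment against control; right, the combination against palbociclib and its departure from the added effects of TCP and palbociclib; filled points passed both thresholds. FCN1 reaches 8.19 under the combination, and the points of CFD are to the left of 0 for TCP and for the combination against palbociclib.

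Other complement genes were followed in a list of 40 symbols, of which 18 passed the filter. Under TCP none was called by limma, with 3 at an unadjusted p below 0.05, as were 1241 of the 14151 genes tested. Under palbociclib 5 of the 18 were called and under the combination 8, all higher, where 4.54% and 5.87% of all genes tested were called higher. Of the 8, CR1 and VSIG4 passed the filter through the combination libraries alone. VTN, called in both comparisons, passed through the palbociclib and combination libraries alone. The calls of these genes are not independent of the filter. Without the filter, 3 and 7 of 32 were called, beside 5.42% and 8.56% of all genes in either direction. The median log2 fold change of the 18 was 0.03, 0.56 and 1.09 for TCP, palbociclib and the combination. Between the combination and palbociclib none was called, with 7 at an unadjusted p below 0.05, as were 2472 of all genes tested. Against TCP the combination had 7 called, all higher and with CR1 and VSIG4 among them, where 5.46% of all genes tested were called higher. The calls under palbociclib fell to 3 without palbociclib replicate 2, and also to 3 without either control or either combination library. Those under the combination fell to 5 without either control library, 4 without combination replicate 1 and 5 without combination replicate 2.

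Most of the early components were low, apart from MASP2. MASP2, the lectin pathway protease that acts with ficolins, was between 5.83 and 8.39 TPM in the 8 libraries, with no call. C1R, a protease of the C1 complex, was between 0.226 and 1.01 TPM in 7 libraries and at 2.97 TPM in palbociclib replicate 2, and C1S, its partner, was at 1.52 TPM in that library and at or below 0.607 TPM in the others. C2 was at or below 0.455 TPM and CFB, the substrate of factor D, at or below 0.120 TPM in every library. C4A and C4B were below 0.1 TPM each. They are near-identical genes, and how reads that match both were counted is not given, so their levels are uncertain. C5, the source of C5a, was between 4.86 and 5.98 TPM, with a log2 fold change of -0.16 under the combination (95% interval -0.44 to 0.11). Of the genes of the membrane attack complex, C6, C8A and C8B were listed at 0 in every library, while C8G lay between 0.832 and 3.40 TPM, highest with palbociclib and with no call.

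Among the regulators, CLU and VTN rose most. CLU, the gene of clusterin, a chaperone that blocks the attack complex, was at 6.11 and 7.27 TPM in control, 3.64 and 3.62 TPM with TCP, 99.7 and 121 TPM with palbociclib and 69.8 and 86.9 TPM with the combination. Like CFD it was lowest with TCP and highest with palbociclib alone, with log2 fold changes of 3.85 (limma adjusted p = 2.34e-05) under palbociclib and 3.36 under the combination. VTN, the gene of vitronectin, overlaps SARM1, which was called higher under the combination with the replicate block alone (log2 fold change 1.12, limma adjusted p = 0.00130) and likewise against TCP (1.07). VTN was at or below 0.512 TPM without palbociclib and at 8.47 and 17.6 TPM with palbociclib and 9.73 and 20.8 TPM with the combination. SERPING1, the C1 inhibitor, rose by 1.16 (adjusted p = 0.00961) and 1.21 (adjusted p = 0.00648) on the log2 scale.

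CR1, a receptor for C3b and C4b, was at or below 0.0642 TPM in the control and TCP libraries, 0.372 and 0.460 TPM with palbociclib and 2.13 and 1.63 TPM with the combination, where it was called (log2 fold change 1.48, limma adjusted p = 0.000856). Like C5AR1, CR1 passed the filter through the combination libraries alone. CFI, the gene of factor I, stayed at or below 0.189 TPM. The membrane regulators CD46, CD55 and CD59 had log2 fold changes of 0.15, 0.18 and 0.96 under the combination, none of them called.

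The integrin chains of the complement receptors CR3 and CR4 did not move together. ITGB2, their shared beta chain, rose by 1.85 under palbociclib and 2.14 under the combination on the log2 scale, with a highest level of 725 TPM. ITGAM, the alpha chain of CR3 known as CD11b, was at 2.23 and 1.23 TPM in control, 6.50 and 3.10 TPM with TCP, 1.91 and 1.80 TPM with palbociclib and 13.3 and 11.0 TPM with the combination. The combination libraries were above all others, and the call was made against control (log2 fold change 2.29, limma adjusted p = 0.000934). Against palbociclib (2.20, adjusted p = 0.0157) it was called only with the replicate block (adjusted p = 0.00417), as it was against TCP (log2 difference 1.25, adjusted p = 0.0134, and 0.00264 with the block). ITGAX, the alpha chain of CR4, had a log2 fold change of 0.62 (95% interval -0.43 to 1.67) under the combination.

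**Figure D4:**
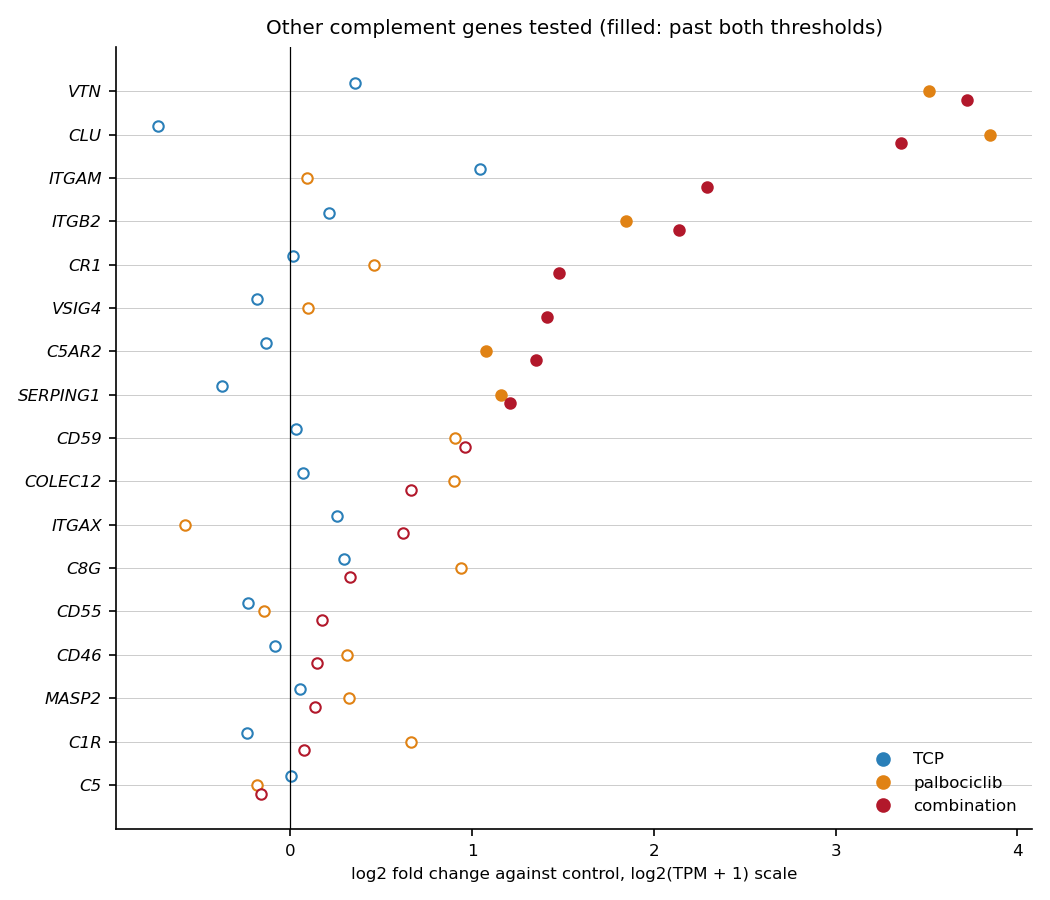
Log2 fold change against control, on the log2(TPM + 1) scale, of 17 of the 18 other complement genes tested, 1 row per gene and 1 point per treatment. Filled points passed both thresholds. VTN and CLU lie above 3 with palbociclib and with the combination, ITGAM, CR1 and VSIG4 are filled for the combination alone, and no point for TCP is filled.

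Of 7 genes for C1q-binding proteins, 6 were tested and 1 was called higher, beside the same 4.54% and 5.87% of all genes tested. LRP1, an endocytic receptor, was at 1.85 and 2.05 TPM in control, 5.36 and 3.93 TPM with TCP, 7.40 and 12.1 TPM with palbociclib and 30.8 and 41.0 TPM with the combination. It was called under palbociclib (log2 fold change 1.83) and the combination (3.63, limma adjusted p = 6.97e-05). Its 4 groups did not overlap. C1QBP, on the same list, fell from a mean of 438 TPM in control to 238 TPM with palbociclib and 236 TPM with the combination. Its log2 fold changes of -0.89 and -0.90 (limma adjusted p = 0.00164 and 0.00111) were short of the fold change threshold. Of the 6 genes, 5 had a log2 fold change above 0 in these comparisons.

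Among 12 other leukocyte chemoattractant receptors, 10 were tested. Under palbociclib FPR2, PTAFR, CXCR2 and CX3CR1 were called higher. Under the combination FPR2, PTAFR, CMKLR1, CCR1, CCR2 and CX3CR1 were called higher, with log2 fold changes of up to 4.09 for FPR2. Of all genes tested, 4.54% were called higher under palbociclib and 5.87% under the combination. CMKLR1 is the chemerin receptor. It was at or below 0.798 TPM in the first 3 groups and at 3.60 and 3.08 TPM with the combination, through which alone it passed the filter, and it was called against palbociclib (log2 difference 1.72, limma adjusted p = 0.00717). With the replicate block CCR2 and CX3CR1 were called there too, by log2 differences of 1.73 (adjusted p = 0.00381) and 1.42 (adjusted p = 0.00903), and CCR2 was also called under palbociclib (1.02, adjusted p = 0.00220). With the block, 114 of the 14151 genes tested were called between the combination and palbociclib, and 1386 under palbociclib.

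Without palbociclib replicate 2, the log2 fold change under palbociclib was 3.71 for CLU, 3.03 for VTN, 1.76 for ITGB2, 1.51 for LRP1, 3.87 for FPR2, 2.00 for CX3CR1, 1.03 for CXCR2, 3.48 for MARCO and 1.26 for CSF1R, each still called by limma. It was 1.05 for SERPING1 (adjusted p = 0.0612), 0.90 for C5AR2 (adjusted p = 0.0502), 2.42 for PTAFR (adjusted p = 0.0144) and -1.30 for FLT3 (adjusted p = 0.0154), which were no longer called. CMKLR1 then differed between the combination and palbociclib by 1.76 (adjusted p = 0.0443).

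C1q is best known from tissue macrophages, so 10 of their markers were read beside C1QA. MRC1, TIMD4 and LYVE1 were listed at 0 in every library and CD163 did not exceed 0.441 TPM. Of the markers 3 passed the filter, VSIG4 through the combination libraries alone and MERTK through the palbociclib and combination libraries alone. These 3 were called higher under the combination, where 5.87% of all genes tested were. MARCO alone was also called under palbociclib, where 4.54% of all genes tested were called higher. MARCO, a scavenger receptor, was at 1.39 and 2.29 TPM in control. It was at 30.3 and 34.5 TPM with palbociclib (log2 fold change 3.57) and 38.8 and 50.8 TPM with the combination (4.02). Under the combination VSIG4, a receptor for C3b, rose by 1.41 and MERTK, a receptor in the uptake of dying cells, by 1.06. The summed level of the list was 2.39 and 3.61 TPM in control and 32.9 and 37.0 TPM with palbociclib. With the combination it was 45.4 and 55.9 TPM, and most of it came from MARCO.

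For each gene the other tested gene with the most similar profile was found, as the smallest root mean square difference in log2(TPM + 1), centred on control, over the 8 libraries. These values describe the 8 libraries and carry no test. On this scale the change of a gene below 1 TPM in control is understated, so a near profile need not be an equal fold change. This bears on C1QA, C5AR1, FCN1 and FPR1. PILRA was nearest to C1QA (0.193) and also to C3 (0.412). From control to the combination, mean TPM went from 0.154 to 26.3 for C1QA and from 6.37 to 153 for PILRA. S100A12, an alarmin of phagocytes, was nearest to FCN1 (0.520), with 527 and 386 TPM in the combination libraries and at most 8.39 TPM in the others. The entry MIR223 was nearest to CFD (0.130), SAMSN1 to CFP (0.295) and PRKCA to C3AR1 (0.120). FCER2 was nearest to C5AR1 (0.272) and THBS1 to FPR1 (0.428).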

How the data were processed

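The 8 RNA-seq libraries of MV4-11 cells were assigned to 4 groups of 2 by their titles and treatment labels. The deposited values are TPM. The authors mapped reads to hg19 (GRCh37) with subread-align, counted them with featureCounts 1.6.4 and converted the counts to TPM, per the study's methods and processing notes. SAMtools 1.9 and DESeq2 1.26.0 are also listed, and the annotation, gene lengths and strand setting are not given in the sources used here, so overlapping and near-identical genes may have exchanged reads. Depth is unknown, and no interval that needs counts is given. No column of another sample was present.

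The model was fitted to log2(TPM + 1) in R 4.3.3 with limma 3.58.1. It had 1 mean for each group, used the 8 libraries together, left 4 residual degrees of freedom and shrank the variances towards a trend with the mean level, after a filter of at least 1 TPM in at least 2 libraries. The test was checked on simulated data with independent libraries, where changes were placed only in genes above a set control level. That check does not cover genes below 1 TPM in control or a pairing of replicates. TCP, palbociclib and the combination were each compared with control, the combination was compared with TCP and with palbociclib, and an interaction was tested. Alternatives were a pseudocount of 0.1, quantile normalization, no filter, median-ratio scaling, a mean of at least 5 TPM, the replicate block, only the groups compared, no trend, an adjusted p below 0.05 and each replicate left out.

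The groups share the replicate numbers 1 and 2. After subtraction of the group means, libraries with the same number correlated at 0.169 to 0.491 across genes in all 6 pairs of groups. On these values alone, the numbers were taken to pair libraries. The main model has no term for this pairing, which entered only in the alternative with the replicate block.

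The 10 genes and the lists were chosen with earlier results of these data known. Genes named are the 10, list genes that were called, a set of other complement genes and receptors named whatever their values, and the nearest gene of each, among genes with a mean of at least 5 TPM in their highest group. The 8 genes of the cell type list, C1QBP and some stromal and macrophage markers are also named. One gene of the complement list is counted but not reported by name. Gene positions are from a GENCODE annotation on GRCh37 and promoters from RefSeq.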

Additional observations from a re-analysis of the deposited data

How the results depend on the processing

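The calls of the 10 genes against control did not change under any alternative run, apart from C5AR1, which failed the filter in 3 of the 17. Between the combination and palbociclib, where 3 genes were called, none was called with a pseudocount of 0.1, 1 with no filter and 1 with only the groups compared, and 0 to 1 with a library left out. There were 2 with a mean of at least 5 TPM. With median-ratio scaling, the replicate block, no trend or an adjusted p below 0.05 there were 4, with C1QA added. The lost calls kept their direction, and the cause was not tested. For the list of other complement genes, the 5 calls under palbociclib became 3 with no filter, 3 with a mean of at least 5 TPM, 3 with only the groups compared and 3 to 5 with a library left out. The 8 calls under the combination became 4 with a mean of at least 5 TPM, where fewer genes are tested, and 4 to 8 with a library left out. The 7 against TCP became 3 with that filter and 3 to 8 with a library left out, where 3 were called without combination replicate 1 and 4 without combination replicate 2. Between the combination and palbociclib, where that list had 0 calls, there was 1 with quantile normalization, 1 with the replicate block, 1 with no trend, 3 at an adjusted p below 0.05 and 0 to 1 with a library left out.

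Only C5AR1 changed sign, in differences that were never called. Its log2 fold change under TCP became -0.015 with quantile normalization and ranged from -0.19 to 0.24 with a library left out. It was -0.14 without control replicate 2 and -0.19 without TCP replicate 1. Under palbociclib it became -0.026 with quantile normalization and ranged from -0.13 to 0.20 with a library left out, where it was below 0 without control replicate 2 and without palbociclib replicate 1 (-0.05). With the replicate block, calls that changed among the genes named are given beside their results. It changed no other call of the 10 genes. Over all genes it raised the calls from 71 to 114 between the combination and palbociclib and from 8 to 20 under TCP. Since TPM hold no depth, precision at low levels is unknown, which bears most on the control values of C1QA, C5AR1, FCN1 and FPR1.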
